A study of Mus musculus with 32 samples.

Results

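Insulin-like growth factor (IGF) signalling was followed through 9 genes of the 54838 in the expression table: the ligand *Igf1*, the receptors *Igf1r* and *Igf2r*, the binding proteins *Igfbp3*, *Igfbp4*, *Igfbp5* and *Igfbp6*, and the receptor adaptors *Irs1* and *Irs2*. The genes were listed by name, and each was found in the table by its Ensembl identifier. RNA came from the tibialis anterior (TA), a fast muscle of the lower leg, of WT and *Mtm1* KO mice at P1, P14, P21 and P35, with n=4 libraries per genotype and age and 32 in all. The KO line carries a deletion in exon 4 of the X-linked gene *Mtm1*, which encodes the phosphoinositide phosphatase myotubularin, and the deletion shifts the reading frame to an early stop. The line was first made on a 129S2PAS background and was later moved to C57BL/6J, on which both genotypes were kept. No treatment is named for either genotype, and the P1 age is given by the labels.

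IGF1 is made by liver and by muscle itself. It acts on IGF1R, a receptor tyrosine kinase that recruits IRS adaptors and, through them, phosphoinositide 3-kinase and AKT, a pathway known for muscle growth and for restraining FoxO transcription factors. Most IGF outside cells is held by IGF-binding proteins, which lengthen its life, keep it from the receptor or deliver it. IGF2R carries IGF2 to lysosomes for degradation. Growth hormone, acting through its receptor, JAK2 and STAT5, is a main driver of *Igf1* transcription.

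Libraries held 49321035 to 85631408 counts, and levels are given as CPM, the count relative to the effective size of its library, with one scaling over all 32 libraries. The lowest count of any of the 9 genes was 636, for *Irs2* in a WT library at P35. *Mtm1*, the targeted gene, lay at 5.26 to 6.02 CPM in WT and 2.32 to 3.91 CPM in KO at P1, and its KO means were 4.07±0.323, 3.14±0.48 and 3.69±0.265 CPM at the later ages, where WT was at 20.6±1.02, 20.7±1.33 and 22.1±1.90 CPM. The muscle label held: 8 genes of the muscle fibre summed to 24908 to 32559 CPM in WT at P1 and to 118468 to 158807 CPM at P35. At P1, 6 keratinocyte genes of skin summed to 1292 to 4135 CPM in WT and 1183 to 3436 CPM in KO, against 4.23 to 5.87 and 4.07 to 6.12 CPM at P35. Replicate 4 of KO at P1 stood apart by intestinal genes chosen after their values were seen, with the mucin gene *Muc2* at 10.3 CPM and *Clca1* at 51.7 CPM, against 0.0468 to 0.15 and 0.0234 to 0.113 CPM in the other KO libraries of that age. The replicates numbered 4 at P14 stood apart in both genotypes, as described further on.

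A gene was called at an adjusted *P* under 0.01 and a change over 1.5-fold in edgeR's quasi-likelihood test, with *P* adjusted across the whole table. Adjusted *P* values are from that test, and "log2" values of a comparison are its fitted log2 fold changes. The labels do not say which libraries share a litter, so the values of *P* measure the spread between these libraries.

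Promoter sequence is shown for *Igfbp4*, the member called between genotypes, at P35 only and with limits given further on. It is also shown for *Irs1* and *Irs2*, in which a motif of insulin response was found. All 9 members matched the promoter table from RefSeq (GRCm38.p6), and the 250 bases before the start were read on the strand of the gene. That start need not be the start of the locus given further on. For *Igf1* the window was chr10:87860861-87861110, inside the locus, which begins at 87858265. The windows of *Igf1r* and *Irs2* lay outside their loci and did not touch them. The motifs searched on both strands were CAAAACA (insulin response), TGTTTAC (FoxO) and CAGCTG (the E-box of muscle regulatory factors). Capitals mark CAAAACA or its reverse complement TGTTTTG.
*Igfbp4*, chr11:99040994-99041243, plus strand: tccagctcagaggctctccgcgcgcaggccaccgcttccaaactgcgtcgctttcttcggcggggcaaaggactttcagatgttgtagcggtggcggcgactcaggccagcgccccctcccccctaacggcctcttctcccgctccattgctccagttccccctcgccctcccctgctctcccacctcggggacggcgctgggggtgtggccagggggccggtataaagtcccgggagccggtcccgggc
*Irs1*, chr1:82291440-82291689, minus strand: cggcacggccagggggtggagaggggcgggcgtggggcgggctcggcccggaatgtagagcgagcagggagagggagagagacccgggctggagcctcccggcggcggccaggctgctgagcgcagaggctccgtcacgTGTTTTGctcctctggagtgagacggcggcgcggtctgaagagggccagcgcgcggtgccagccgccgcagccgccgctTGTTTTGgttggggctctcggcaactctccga
*Irs2*, chr8:11008930-11009179, minus strand: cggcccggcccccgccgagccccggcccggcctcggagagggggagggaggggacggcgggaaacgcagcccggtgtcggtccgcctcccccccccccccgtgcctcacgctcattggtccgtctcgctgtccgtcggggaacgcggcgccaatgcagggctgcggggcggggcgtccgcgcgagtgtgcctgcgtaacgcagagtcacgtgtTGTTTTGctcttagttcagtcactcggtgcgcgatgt
CAAAACA stood in 2 copies before *Irs1* and in 1 copy before *Irs2*, and 5.56% of 32851 promoters of the same length held it. CAGCTG stood in 1 copy in the window of *Igf1*, with a share of 13.0% over all promoters. TGTTTAC was in none of the 9 windows, with a share of 3.17%. These are matches of letters and were not tested as sites.

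The first comparison asked when after birth the members change. From P1 to P14, 6 of 9 were called in WT, beside 55.1% of all genes, and 6 of 9 in KO, beside 52.6%. *Igfbp5* and *Irs1* rose in both genotypes, and *Igf1*, *Igf2r*, *Igfbp3* and *Igfbp4* fell in both. Of all genes, 24.7% were called higher and 30.4% lower in WT, and 23.5% and 29.1% in KO. The members' share is near that of the whole table. The P1 and P14 libraries did not overlap for 7 of 9 members in WT, beside 76% of all genes, and for 8 of 9 in KO, beside 70.2%.

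*Igf1*, the ligand (ENSMUSG00000020053, chr10:87858265-87937042, plus strand, GRCm38), lay at 145, 171, 155 and 168 CPM in WT at P1 and at 82.6, 90.0, 83.3 and 48.9 CPM at P14. In KO it lay at 150.4, 163, 159 and 126 CPM at P1 and at 90.9, 75.9, 72.2 and 52.8 CPM at P14. Each P14 library was below each P1 library of both genotypes, and within a genotype most genes likewise did not overlap between these ages. *Igf1* fell 2.11-fold in WT (log2 fold change −1.08, SE 0.17, adjusted *P*=0.000208, n=4 per age) and 2.09-fold in KO (−1.07, SE 0.16, adjusted *P*=0.000205, n=4). Over the 8 groups its means ran from 159.6±11.9 CPM (WT at P1) to 54.7±11.3 CPM (KO at P21). In that order only the step from the P1 groups to the later ones was free of overlap between neighbours.

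Of the receptors, *Igf2r* (ENSMUSG00000023830, chr17:12682406-12769664, minus strand) went from 318±18.1 CPM at P1 to 178±15.9 CPM at P14 in WT, a fall of 1.80-fold (log2 fold change −0.85, SE 0.080, adjusted *P*=7.14e-06, n=4). In KO it went from 324±68.6 to 174±16.1 CPM (−0.92, SE 0.16, adjusted *P*=0.000594, n=4). The wide spread of KO at P1 came from replicate 4, the library with intestinal genes, at 223 CPM against 339.8 to 376 CPM in the others. *Igf1r* (ENSMUSG00000005533, chr7:67952827-68233668, plus strand) was at 54.7±4.25 and 39.9±4.25 CPM in WT (−0.47, SE 0.086, adjusted *P*=0.00066, n=4) and at 62.1±6.68 and 43.4±2.86 CPM in KO (−0.54, SE 0.095, adjusted *P*=0.000553, n=4). Its P1 and P14 libraries did not overlap, as was so for most genes, but the difference was under 1.5-fold and was not called. In KO it was called without replicate 4 of P1 (log2 −0.61) and with at least 10 counts in every library (−0.63), and with library totals it was called in both genotypes (−1.24 in WT and −1.25 in KO). *Airn*, a gene antisense to *Igf2r* that shares no exon with it, had group means of 8.15 CPM at most.

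*Igfbp5* (ENSMUSG00000026185, chr1:72857932-72874884, minus strand) is a binding protein abundant in skeletal muscle. It lay at 413, 357, 317 and 409 CPM in WT at P1 and at 1336, 1481, 1545 and 904 CPM at P14. In KO it lay at 348, 327, 273 and 285 CPM at P1 and at 967, 1096, 1452 and 658 CPM at P14. All P14 libraries were above all P1 libraries of either genotype, with a wide spread at P14. Within a genotype, most genes likewise did not overlap between these ages. *Igfbp5* rose 3.50-fold in WT (log2 fold change 1.81, SE 0.17, adjusted *P*=7.72e-06, n=4) and 3.32-fold in KO (1.73, SE 0.22, adjusted *P*=7.69e-05, n=4). In the order of its 8 groups the one step without overlap was that from WT at P35 (695±172 CPM) down to WT at P1 (374±45.5 CPM).

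*Igfbp4* and *Igfbp3* went the other way. *Igfbp4* (ENSMUSG00000017493, chr11:99041244-99054392, plus strand) fell 2.20-fold in WT, from 264±17.3 to 121±22.8 CPM (log2 fold change −1.14, SE 0.13, adjusted *P*=2.71e-05, n=4), and 1.94-fold in KO, from 239±10.7 to 125±32.1 CPM (−0.96, SE 0.17, adjusted *P*=0.000702, n=4). *Igfbp3* (ENSMUSG00000020427, chr11:7206086-7213923, minus strand), the main IGF carrier of serum, fell 2.06-fold in WT, from 177±11.7 to 86.5±26.7 CPM (−1.04, SE 0.18, adjusted *P*=0.000484, n=4), and 2.47-fold in KO, from 201±6.11 to 83.0±15.2 CPM (−1.30, SE 0.13, adjusted *P*=1.23e-05, n=4). *Igfbp6* (ENSMUSG00000023046, chr15:102144362-102149511, plus strand), which prefers IGF2, was not called, with WT means of 32.3±3.09 and 36.8±4.91 CPM and KO means of 27.7±1.83 and 33.2±1.94 CPM. The 4 binding proteins thus went in different directions.

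Of the adaptors, *Irs1* (ENSMUSG00000055980, chr1:82233101-82291416, minus strand) rose 1.59-fold in WT, from 98.6±8.51 to 158±29.7 CPM (log2 fold change 0.67, SE 0.13, adjusted *P*=0.0011, n=4), and 1.51-fold in KO, from 104±19.8 to 159.6±10.6 CPM (0.60, SE 0.14, adjusted *P*=0.00359, n=4). Both calls were near the fold threshold. The KO call was lost without replicate 4 of KO at P1 (log2 0.47), without replicate 2 or 3 of KO at P14, and with no filter on low counts (0.57). Where at least 10 counts were required in every library, both calls were lost (log2 0.58 in WT and 0.51 in KO). *Irs2* (ENSMUSG00000038894, chr8:10984681-11008458, minus strand) was not called, with WT means of 26.9±3.41 and 20.7±7.46 CPM and KO means of 32.6±4.55 and 22.9±5.35 CPM. Both adaptor genes share exon bases with a gene on the opposite strand, of which *Gm9747*, over *Irs1*, had a highest group mean of 0.402 CPM.

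Other markers moved with this step. Of 8 muscle fibre genes, 8 rose in WT and 8 in KO. Of 8 fibroblast genes, 6 fell in WT, with sums of 17678 to 24133 CPM at P1 and 5736 to 11943 CPM at P14, and 5 fell in KO, with sums of 13336 to 22646 and 4742 to 9698 CPM. All 6 keratinocyte genes fell in both. In bulk tissue, fewer cells of a type and less RNA per cell cannot be told apart, and the part of these cells in the members' changes was not tested. With library totals in place of TMM factors the median of all genes moved by −0.77 in WT and −0.71 in KO on the log2 scale, and *Irs1* and *Igfbp6* changed sign in both genotypes. Without replicate 4 of P14, *Irs2* was called as a seventh member, at log2 −0.67 in WT and −0.70 in KO.

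**Figure D1:**
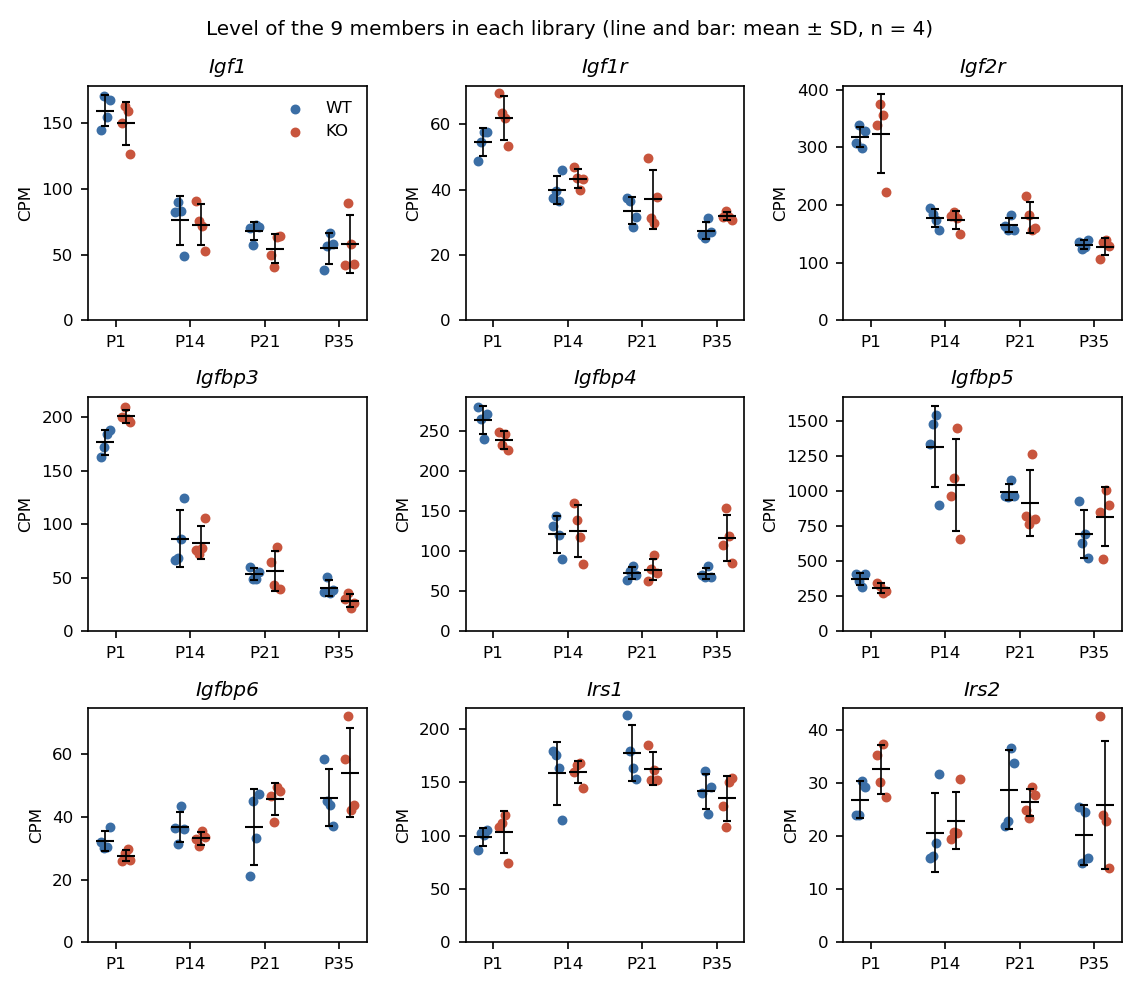
Level of each of the 9 genes in CPM (vertical axes, from 0) in every library of WT and KO at P1, P14, P21 and P35, with mean±SD, n=4. *Igf1*, *Igf2r*, *Igfbp3* and *Igfbp4* are highest at P1 and *Igfbp5* is lowest there, and the KO libraries of *Igfbp4* at P35 (85.5 to 154 CPM) lie above the WT libraries (67.9 to 82.2 CPM).

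**Figure D2:**
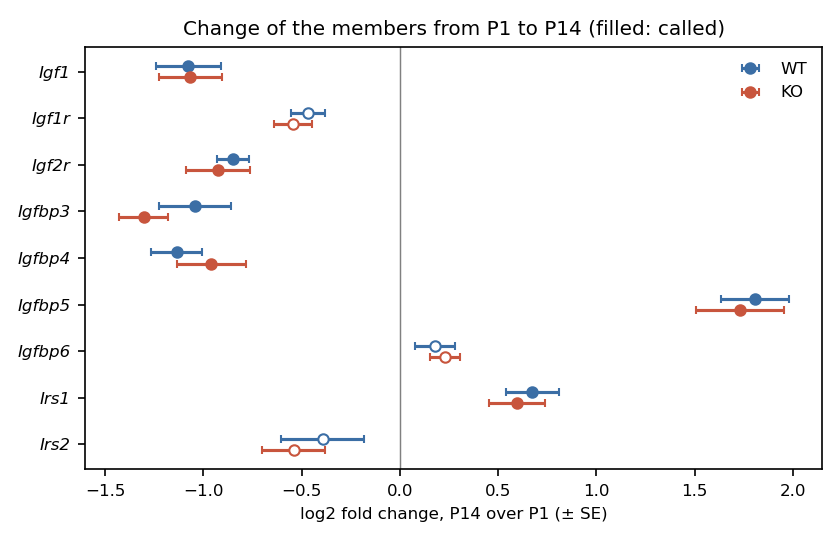
log2 fold change of each gene from P1 to P14 with its SE in WT and KO, n=4 per group. *Igfbp5* stands highest, at 1.81 in WT and 1.73 in KO, and *Igfbp3* lowest in KO, at −1.30.

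After P14 few members passed. From P14 to P21, 1 of 9 was called in WT, beside 5.53% of all genes, and 0 of 9 in KO, beside 7.04%. The WT call was *Igfbp4*, which fell to 72.7±7.19 CPM (log2 fold change −0.75, SE 0.14, adjusted *P*=0.00545, n=4 per age). In KO, *Igfbp4* was at 77.2±13.3 CPM at P21 (−0.71, SE 0.19, adjusted *P*=0.025, n=4). The WT call was lost in 6 of the 8 fits that left out 1 library, each except those without replicate 4 of P14 or replicate 3 of P21, and in the fit blocked by replicate number (log2 −0.73, adjusted *P*=0.0199, edgeR). From P21 to P35, 0 of 9 were called in WT, beside 2.45%, and 0 of 9 in KO, beside 4.01%. In edgeR at an unadjusted *P* under 0.05, 4 of 9 passed to P21 in KO, 5 to P35 in WT and 3 to P35 in KO, beside 41.3%, 34.4% and 38.7% of all genes, and DESeq2 called 1, 0 and 2.

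From P21 to P35 the libraries of the ages did not overlap for 2 of 9 members in WT, *Igf2r* (−0.34, SE 0.076, adjusted *P*=0.0173, n=4) and *Igfbp5* (−0.53, SE 0.16, adjusted *P*=0.0503, n=4), beside 23.5% of all genes. In KO the same was so for *Igf2r* (−0.47, SE 0.12, adjusted *P*=0.0231, n=4) and *Igfbp3*, beside 27.1%. *Igfbp3* was at 53.6±5.42 CPM in WT at P21 and 40.6±7.13 CPM at P35, with overlap, and in KO at 56.5±18.3 and 28.7±6.18 CPM (−0.96, SE 0.23, adjusted *P*=0.0183, n=4, for the KO step). *Igfbp6* was at 46.2±8.97 CPM in WT and 54.2±14.1 CPM in KO at P35, and its KO step from P14 to P21 was under the fold threshold (0.45, SE 0.090, adjusted *P*=0.00772, n=4). The highest mean of WT over the lowest, across the 4 ages, was 4.36-fold for *Igfbp3*, 3.66-fold for *Igfbp4*, 3.52-fold for *Igfbp5* and 2.90-fold for *Igf1*. It was 2.42-fold for *Igf2r*, 1.99-fold for *Igf1r* and 1.80-fold for *Irs1*, and lowest for *Igfbp6* (1.43-fold) and *Irs2* (1.42-fold). In WT the binding proteins hence included both the widest and nearly the narrowest span. In KO the span of *Igfbp6* was log2 0.97, above those of *Igf1r* (0.96), *Irs1* (0.65) and *Irs2* (0.51).

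Levels were compared between members per length of exon. As CPM per kb, *Igfbp5*, *Igfbp4* and *Igfbp3* stood at 62.3±7.57, 59.9±3.92 and 56.5±3.73 in WT at P1, with overlapping neighbours. In WT at P35, *Igfbp5* stood at 116±28.7, *Igfbp6* at 41.5±8.07 and *Igfbp4* at 16.4±1.52 CPM per kb, each free of overlap with the next above it. *Igfbp4*, *Irs1*, *Igf2r* and *Igfbp3* overlapped from neighbour to neighbour there. At P21, *Igfbp5* and *Igfbp6* were again highest in WT, at 165±9.69 and 33.0±10.8, and *Irs1* (19.4±2.85), *Igf2r* (17.7±1.29), *Igfbp3* (17.1±1.73) and *Igfbp4* (16.5±1.63) followed with overlapping neighbours. At P35, *Igf1* was at 5.55±1.19, *Irs2* at 3.20±0.883 and *Igf1r*, the lowest, at 1.64±0.162 CPM per kb.

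The second comparison asked whether the members differ between *Mtm1* KO and WT muscle of the same age. At P1, P14 and P21, 0 of 9 were called, beside 0.0442%, 0.0318% and 4.67% of all genes. *Mtm1*, the targeted gene, was itself not called at P1 (log2 fold change −0.98, SE 0.17, adjusted *P*=0.0668, edgeR). Its libraries did not overlap there, as was so for 8.62% of all genes. By edgeR's unadjusted *P* under 0.05, 3 of 9 passed at P1, 0 at P14 and 0 at P21, beside 10.9%, 6.82% and 35.1% of all genes, and DESeq2 called 0, 0 and 0. At P35, 1 of 9 was called, *Igfbp4*, beside 16% of all genes, 8.49% higher and 7.52% lower in KO. The median log2 fold change of the members was 0.24 and that of all genes tested was 0.035.

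*Igfbp4* at P35 lay at 70.7, 67.9, 82.2 and 68.4 CPM in WT, and the KO libraries were at 108, 154, 119 and 85.5 CPM. The genotypes did not overlap, as was so for 39.6% of all genes at this age. *Igfbp4* was 1.64-fold higher in KO, at 117±28.5 against 72.3±6.69 CPM (log2 fold change 0.72, SE 0.16, adjusted *P*=0.00668, n=4). The call was lost in 7 of the 8 fits without 1 library, each except that without replicate 4 of KO, while log2 stayed between 0.54 (without replicate 2 of KO) and 0.82. Adjusted *P* in these edgeR fits ran from 0.0023 to 0.0219. IGFBP4 is known mostly as an inhibitor of IGF action that the protease PAPP-A removes, and *Pappa* was at 0.833±0.293 CPM in WT and 0.983±0.51 CPM in KO.

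Whether the genotype difference itself changed with age was tested as an interaction. For *Igfbp4*, the difference at P35 exceeded that at P21 by log2 0.60 and missed the threshold (0.60, SE 0.23, adjusted *P*=0.164, n=4 per group). No member passed for P14 against P1, P21 against P14 or P35 against P21, with 0 of 9 beside 0.0161%, 0.425% and 0.463% of all genes by edgeR and 0 by DESeq2. At an unadjusted *P* under 0.05, 2 of 9 passed in the last of these, *Igfbp4* and *Igfbp3* (log2 −0.57), beside 17.4% of all genes, and 0 in the others, beside 6.46% and 12.9%.

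Markers of some other cell types differed with genotype at P35, where 8.49% of all genes were called higher and 7.52% lower in KO. Of 4 adipocyte genes, 3 were called higher in KO, with sums of 12.7 to 48.3 CPM against 1.98 to 8.34 CPM in WT and none at 0. Of 8 fibroblast genes, 0 were called by edgeR and 3 had an unadjusted *P* under 0.05. Their sums were 4773 to 7496 CPM in KO and 4273 to 6256 CPM in WT. Of all 15595 genes tested at this age, 7848 had an unadjusted *P* under 0.05 in edgeR. Replicate 2 of KO, highest in *Igfbp4*, was highest of the KO libraries in the sums of fibroblast (7496 CPM), tenocyte (917 CPM) and adipocyte (48.3 CPM) genes. Of 7 macrophage genes 3 were called higher, but 5 log2 fold changes were positive and 2 negative (−0.34 to 1.70). By edgeR 6 of the 7 had an adjusted *P* under 0.05. Macrophage sums overlapped, at 81.3 to 112 CPM in KO and 70.1 to 92.2 CPM in WT. Of 6 endothelial genes 3 were called lower, with 5 log2 fold changes negative and 1 positive. Of 8 muscle fibre genes 2 were called lower, with sums of 73025 to 96860.2 CPM in KO against 118468 to 158807 CPM in WT. Of 4 satellite cell genes 2 were called lower, with sums of 16.4 CPM at most in KO and 17.4 CPM at least in WT. Of 4 Schwann cell genes 0 were called by edgeR, with 4 at an unadjusted *P* under 0.05, a median log2 fold change of 1.57 and sums of 204 to 860.1 CPM in KO against 46.7 to 394 CPM in WT. The part of these cells in the *Igfbp4* difference was not tested.

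The other members were not called at P35. *Igf1* was at 38.6, 56.8, 66.6 and 57.9 CPM in WT, and the KO libraries were at 42.4, 89.4, 58.3 and 42.6 CPM (0.11, SE 0.25, adjusted *P*=0.754, n=4). The groups overlapped, and without the single high library, replicate 2 of KO, log2 was −0.18. *Igf1r* was at 27.5±2.71 CPM in WT and 31.9±1.21 CPM in KO (0.24, SE 0.082, adjusted *P*=0.0403, n=4), and it was called with library totals in place of TMM (log2 0.64), a scaling that moved the median of all genes by 0.40. *Igfbp3* was at 36.8, 51.0, 35.4 and 39.0 CPM in WT, and the KO libraries were at 30.4, 36.3, 21.6 and 26.7 CPM (−0.47, SE 0.17, adjusted *P*=0.0473, n=4). For *Igfbp3*, 3 of the 4 KO libraries lay below all WT libraries and the fourth overlapped them. *Igfbp5* (log2 0.26, SE 0.22), *Igfbp6* (0.26, SE 0.19), *Irs2* (0.38, SE 0.31), *Irs1* (−0.046, SE 0.13) and *Igf2r* (−0.019, SE 0.095) were not called either, and *Irs1* and *Igf2r* changed sign with library totals.

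At P1 the genotypes did not overlap in 2 of 9 members, beside 8.62% of all genes. *Igfbp3* was at 163, 172, 185 and 188 CPM in WT, and the KO libraries were at 200.1, 209, 199 and 195 CPM (0.20, SE 0.070, adjusted *P*=0.347, n=4). *Igfbp6* was at 30.1 to 36.8 CPM in WT and 26.1 to 29.9 CPM in KO (−0.21, SE 0.081, adjusted *P*=0.393, n=4). KO lay higher in the first and lower in the second, and neither passed. *Irs2* was at 24.0 to 30.5 CPM in WT and 27.5 to 37.3 CPM in KO (0.29, SE 0.12, adjusted *P*=0.427, n=4). Genotype differences of all members lay between log2 −0.27 and 0.29 at P1, −0.34 and 0.15 at P14, and −0.30 and 0.33 at P21.

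**Figure D3:**
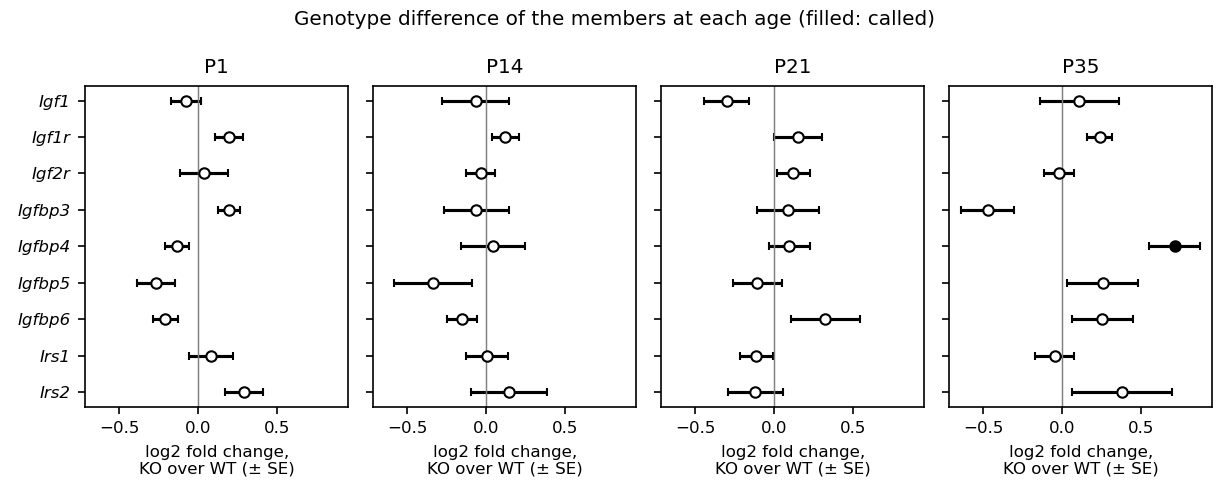
log2 fold change of KO over WT with its SE for each of the 9 genes at each age, n=4 per group. *Igfbp4* at P35 (0.72) is the one called value, and the values at P1 lie between −0.27 and 0.29.

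At P14 the libraries numbered 4 of both genotypes stood apart from the others in most members. In 7 of 9 members, replicate 4 of WT and replicate 4 of KO both lay outside the range of the other 6 libraries on the same side, above it in 2 and below it in 5. Among 15728 genes this held for 42.9%, 21.6% above and 21.3% below. The 2 libraries were noticed in the data, and their difference from the others is a description.

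*Irs2* was highest in both, at 31.7 CPM in WT and 30.9 CPM in KO against 15.9 to 20.7 CPM in the other 6. *Igfbp3* was also highest in both, at 124 CPM in WT and 106 CPM in KO against 66.5 to 86.4 CPM. *Igf1* was lowest in both, at 48.9 CPM in WT and 52.8 CPM in KO against 72.2 to 90.9 CPM. The remaining members outside the range were lowest too, *Igfbp4* (90.2 and 84.7 against 117 to 159.9 CPM), *Igfbp5* (904 and 658 against 967 to 1545 CPM), *Igf2r* (157 and 151 against 175 to 195 CPM) and *Irs1* (115 and 145 against 159.9 to 179 CPM), so that *Igfbp3* went against *Igfbp4* and *Igfbp5*, and *Irs2* against *Irs1*. *Igf1r* and *Igfbp6* lay within the range.

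Some other genes, chosen after their values were seen, moved in the same libraries. *Fkbp5* and *Zbtb16*, known as induced by glucocorticoids, were at 40.7 and 31.6 against 6.05 to 12.1 CPM and at 93.0 and 74.1 against 25.8 to 35.8 CPM. *Fbxo32*, a ubiquitin ligase of muscle atrophy and a known FoxO target, was at 299 and 282 against 59.9 to 118 CPM. *Depp1* (48.6 and 70.1 against 11.1 to 19.8 CPM) and *Klf9* (238 and 195 against 93.1 to 187 CPM) also lay above the range. *Per1*, chosen with them, lay within it, at 71.4 and 61.6 against 31.9 to 77.6 CPM. The 4 adipocyte genes summed to 1.07 and 0.911 CPM against 2.33 to 11.5 CPM, and the 8 fibroblast genes to 5736 and 4742 CPM against 7592 to 11943 CPM. Their part in the members' values was not tested. With both libraries left out, 0 of 9 members were called between genotypes at P14 by edgeR, and DESeq2 was not run without them.

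**Figure D4:**
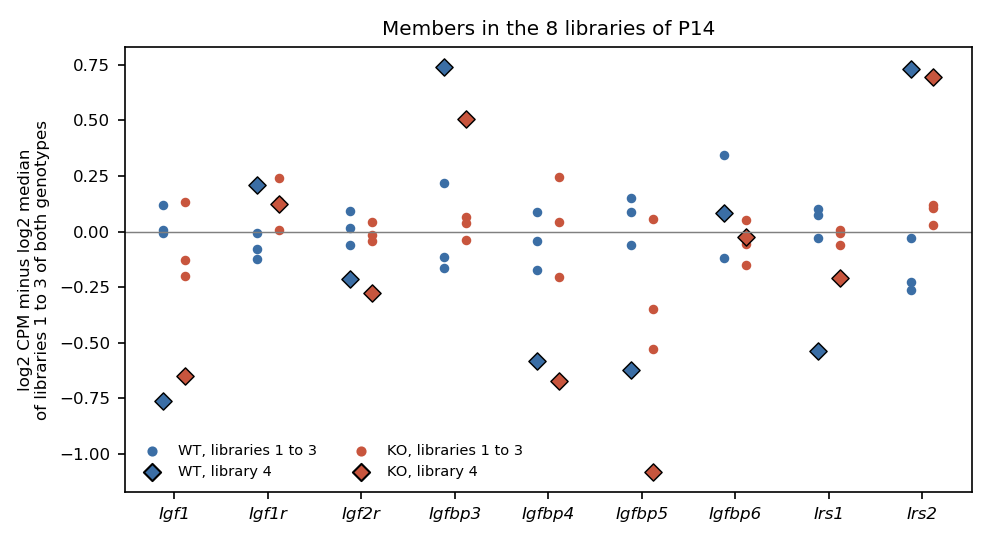
Log2 CPM of each member in each P14 library, relative to the log2 median of libraries 1 to 3 of both genotypes, with diamonds for the libraries numbered 4. Both libraries numbered 4 lie above the others in *Igfbp3* and *Irs2* and below them in *Igf1*, *Igf2r*, *Igfbp4*, *Igfbp5* and *Irs1*.

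At P1, 8 genes of the whole table were called between genotypes, all higher in KO, and 4 of them were from a list of 6 genes that was chosen after their values were seen. These were *Fkbp5* (log2 fold change 1.57), *Zbtb16* (1.77), *Klf9* (0.89) and *Per1* (1.23). The others on that list, *Fbxo32* (0.65, adjusted *P*=0.0706, edgeR) and *Depp1* (0.69, adjusted *P*=0.0996), were not called, and none of the 6 overlapped between genotypes, beside 8.62% of all genes. Because the list was chosen with these values seen, both counts only describe it, and the share of all genes is no test of it. *Fkbp5* was at 62.2, 70.3, 65.9 and 76.8 CPM in KO against 18.6, 20.2, 29.1 and 25.4 CPM in WT. No member was among the 8 genes called.

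Of 45 further genes of the IGF and growth hormone pathway, a list chosen with earlier results of these data known, 40 could be tested at P35. In KO, 4 were called higher and 8 lower, beside 8.49% and 7.52% of all genes, with a median log2 fold change of −0.081 against 0.035 for all genes. *Ghr*, the growth hormone receptor, was lower in KO, at 93.3±10.3 against 179±27.6 CPM (log2 fold change −0.91, SE 0.12, adjusted *P*=0.000517, n=4). *Jak2*, the kinase bound to it, was lower too, at 40.4±11.3 against 108±16.1 CPM (−1.39, SE 0.19, adjusted *P*=0.000534, n=4). *Igfals*, whose product holds IGF and IGFBP3 in their long-lived serum complex, was lower too, at 1.64±0.312 against 3.73±0.238 CPM (−1.16, SE 0.16, adjusted *P*=0.000639, n=4). The receptor and kinase of growth hormone were thus both lower, while *Igf1* itself was not called. The STAT5 genes went in different directions, with *Stat5a* called higher and *Stat5b* called lower in KO, as given below.

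*Ghr* in WT was at 43.2±0.935, 115±8.21, 137±17.7 and 179±27.6 CPM from P1 to P35, and in KO at 48.1±4.91, 101±6.43, 92.5±6.09 and 93.3±10.3 CPM. The KO libraries lay above all WT libraries at P1 and below all of them at the later ages. Over all genes, the genotypes did not overlap in 8.62%, 4.84%, 24.7% and 39.6% at P1, P14, P21 and P35. The genotype difference of *Ghr* at P35 against that at P21 did not pass as an interaction (−0.37, SE 0.14, adjusted *P*=0.161, n=4 per group), and that of *Jak2* did (−1.11, SE 0.21, adjusted *P*=0.00389, n=4). At P21, 1 of 40 was called, beside 4.67% of all genes. It was *Igfals*, at 5.62±0.673 CPM in WT and 2.19±0.547 CPM in KO (−1.35, SE 0.18, adjusted *P*=0.00148, n=4). *Ghr* (−0.56, SE 0.090, adjusted *P*=0.00326, n=4) was under the fold threshold there.

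*Insr*, the insulin receptor, was lower in KO at P35, at 73.5±12.8 against 115±8.52 CPM (log2 fold change −0.62, SE 0.12, adjusted *P*=0.00375, n=4), a call lost without replicate 3 or 4 of either genotype, with library totals and in the fit blocked by replicate number (adjusted *P*=0.0118, edgeR). *Grb14*, an inhibitory adaptor of the insulin receptor, was lower too, at 11.9±1.98 against 25.0±6.77 CPM (−1.05, SE 0.18, adjusted *P*=0.00192, n=4), and this call and that of *Ghr* were lost with library totals. *Igfbp2*, a binding protein abundant before birth, was higher in KO, at 2.56±1.04 against 0.343±0.17 CPM (2.92, SE 0.43, adjusted *P*=0.000791, n=4), the highest fold of the list at a low level. *Igf2bp2*, which binds *Igf2* mRNA, was higher in KO, at 5.02±1.59 against 1.29±0.46 CPM (1.99, SE 0.32, adjusted *P*=0.00116, n=4). *Socs3*, an inhibitor of JAK signalling, was higher in KO, at 13.2±6.37 against 4.37±1.14 CPM (1.62, SE 0.33, adjusted *P*=0.0039, n=4), a call lost without replicate 1, 3 or 4 of WT or replicate 4 of KO. The other genes called were *Stat5a* (log2 0.65), *Socs2* (−0.95), *Stat5b* (−0.85) and *Foxo4* (−0.67), which lie outside the rule for naming genes.

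*Igf2*, the other ligand, was not called at P35, at 78.6±13.7 CPM in WT and 112±21.0 CPM in KO (0.53, SE 0.15, adjusted *P*=0.0205, n=4), and it was called with library totals (log2 0.94). In WT it was at 5293±585 CPM at P1 and 2000.4±496 CPM at P14. *Igfbp7* (log2 −0.13), *Grb10* (0.080) and *Pappa* (0.27) were not called at P35. At P1, 0 of 43 and at P14 0 of 41 genes of the list were called by edgeR, beside 0.0442% and 0.0318% of all genes. At an unadjusted *P* under 0.05 in edgeR there were 9 and 3, beside 10.9% and 6.82% of all genes. DESeq2 called 0 and 0. From P1 to P14, 14 of 42 genes of the list rose and 12 fell in WT, and 16 of 43 rose and 9 fell in KO. Of all genes, 24.7% rose and 30.4% fell in WT, and 23.5% rose and 29.1% fell in KO. *Igfbp2* at P1 was at 145 CPM in replicate 4 of KO, the library with intestinal genes, against 39.6 to 64.0 CPM in the other KO libraries.

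**Figure D5:**
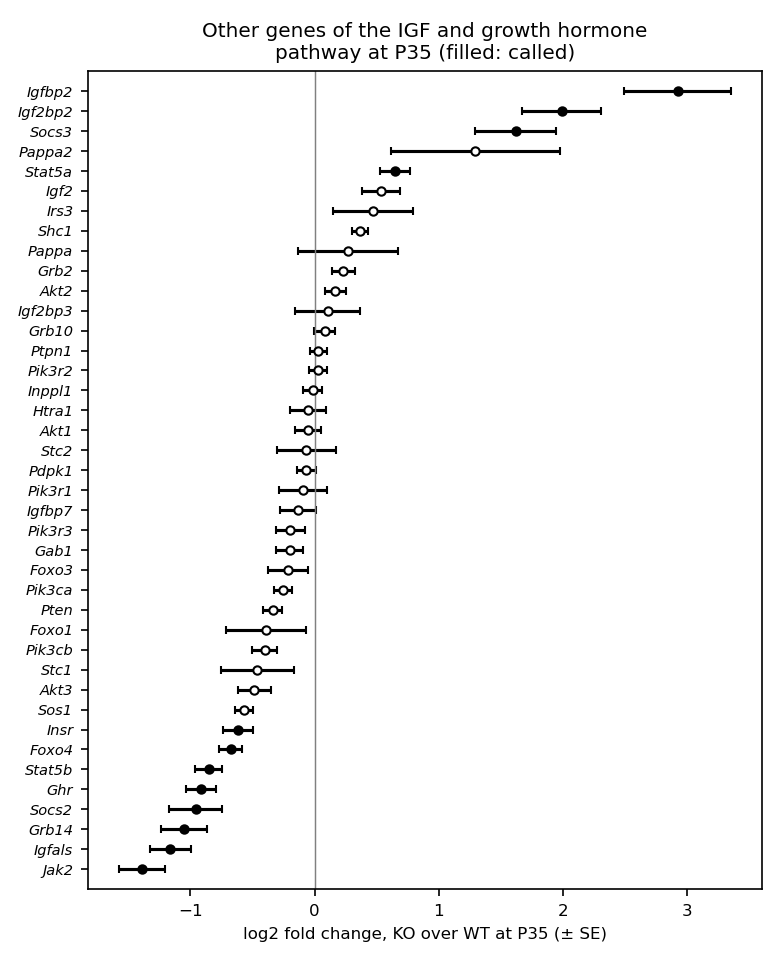
log2 fold change of KO over WT at P35 with its SE for the other genes of the IGF and growth hormone pathway, n=4 per group, with filled points for genes called. *Igfbp2* (2.92) is highest and *Jak2* (−1.39) lowest of those called.

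Genes with patterns most like those of *Igf1*, *Igf1r* and *Igfbp5* were sought among 18583 genes by Pearson's r over the 32 libraries, on log2 CPM centred on the mean of each age. They were *Plagl1* (r=0.82), *Ttyh3* (r=0.82) and *Zc3hav1l* (r=0.81) for *Igf1*. For *Igf1r* they were *Erbb3* (r=0.72), *Pdgfra* (r=0.69) and *Lnpep* (r=0.68). For *Igfbp5* they were *Exoc3l4* (r=0.71), *Caprin2* (r=0.70) and *Bsn* (r=0.68). The points share libraries and depth, and the values describe these 32 libraries.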

How the data were processed

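Bulk RNAseq of TA muscle was analysed in 32 libraries, n=4 per genotype and age. The authors deposited 1 table of expected counts per gene, which need not be whole (4.26% of values were not). Per the submitters' processing notes the tools were STAR 2.6.1, RSEM 1.2.22 and DESeq2, whereas the study's methods name HTSeq; the library kit was directional, but the annotation release and the strand setting of the counting are not given in the sources used here. Of 54838 genes, 54723 had a symbol. Expected counts were rounded and tested in R 4.3.3 with edgeR 4.0.16 (quasi-likelihood test, TMM factors, filterByExpr) on the libraries of each pair of groups, and interactions on all 32 libraries, with Benjamini-Hochberg adjustment. Calls needed an adjusted P under 0.01 and over 1.5-fold. Levels are TMM-scaled CPM over all 32 libraries. The scripts were tested on simulated data.

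All members were named, with the pathway genes called at an age (where over 8, the 3 highest and 3 lowest), *Igf2*, *Insr*, *Igfbp2*, *Igfbp7*, *Pappa*, *Ghr* and *Grb10*, and the 3 genes most like each of 4 members (those for *Irs2* are not reported here). The members and lists were chosen with earlier results of these data known. Replicate numbers are shared between groups in the labels. The deviations of same-numbered libraries from the means of their groups were correlated. At P14 r was 0.59 for the pair numbered 4 and 0.19 to 0.29 for the others. Both libraries numbered 4 lay apart there and enter those means, which shifts the others alike. The r of the others hence cannot show that they match. At the other ages not all pairs had a positive r, so the block was an alternative. Other alternatives were DESeq2 1.42.0, RLE factors, library totals, other filters and thresholds, 1 fit of all libraries, each library left out and, added after seeing the data, edgeR's adjusted deviances and both P14 libraries numbered 4 left out. Promoters were read from RefSeq tables (GRCm38.p6).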

Additional observations from a re-analysis of the deposited data

Results flagged for a closer look

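In 5 of 72 groups of 4 libraries, a member had 1 library far from the others by Dixon's gap test, and chance flags about 1 in 20 groups. *Igf1* was lowest in replicate 4 of WT at P14, at 48.9 CPM against 82.6 to 90.0 CPM. *Irs2* was highest in replicate 4 of KO at P14, at 30.9 CPM against 19.5 to 20.7 CPM. *Igf1* was lowest in replicate 2 of WT at P21, at 57.7 CPM against 70.0 to 72.8 CPM. *Igfbp5* was highest in replicate 3 of KO at P21, at 1266 CPM against 768 to 821 CPM, and the 5 tenocyte genes summed to 952 CPM in that library against 151, 193 and 215 CPM in the others, whose part was not tested. *Igfbp5* was also highest in replicate 3 of WT at P21, at 1079 CPM against 959 to 966 CPM.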

How the results depend on the processing

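Of 323 alternative counts of calls 285 stayed within 1.5 times the reported count, and of 1256 alternative fold changes 1159 kept direction and side of the threshold. For each count that moved and each sign that turned, the cause was not tested, also where fewer libraries were fitted. By DESeq2 and likewise with all 32 libraries in 1 fit, 4 pathway genes were called between genotypes at P21, and 2 members in WT and 1 in KO from P14 to P21 and 2 in KO from P21 to P35. At an adjusted P under 0.05 with no fold threshold, pathway calls were 1 at P1, 14 at P21 and 19 at P35, and member calls were 3 at P35, 2 in WT and 2 in KO from P14 to P21, and 2 in WT and 3 in KO from P21 to P35. The share of all genes passing under these alternative settings was not counted, so these counts are not read as a result about the lists. With library totals, 3 pathway genes at P21, 2 members at P35 and 2 members from P14 to P21 in WT were called, and signs turned between genotypes for *Igf1* (0.024), *Igf2r* (0.053) and *Igfbp3* (0.038) at P14, for *Igfbp5* (0.084), *Irs1* (0.082), *Irs2* (0.062) and *Grb10* (0.075) at P21 and for *Igf2r* (0.39), *Irs1* (0.35) and *Igfbp7* (0.27) at P35. From P1 to P14 they turned for *Igfbp6* (−0.60 in WT, −0.48 in KO) and *Irs1* (−0.081 in WT, −0.10 in KO). With at least 10 counts in every library *Igf2r* at P35 was 0.0026. Without both P14 libraries numbered 4, *Igfbp3* was 0.026 and *Irs1* −0.076.

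With the replicate block, 0 members were called from P14 to P21 in WT and 0 between genotypes at P14. With each library left out in turn, member calls ran 0 to 1 at P35, 0 to 1 in WT and 0 to 1 in KO from P14 to P21, and pathway calls 0 to 1 at P1 and 1 to 4 at P21. Between genotypes, log2 fold changes that crossed 0 ran at P1 −0.045 to 0.18 for *Igf2r*, at P14 −0.23 to 0.058 for *Igf1*, −0.090 to 0.025 for *Igf2r*, −0.20 to 0.16 for *Igfbp3*, −0.096 to 0.19 for *Igfbp4*, −0.12 to 0.073 for *Irs1* and −0.035 to 0.43 for *Irs2*. At P21 they ran −0.0087 to 0.24 for *Igf1r*, −0.12 to 0.22 for *Igfbp3*, −0.021 to 0.19 for *Igfbp4* and −0.25 to 0.011 for *Irs2*, at P35 −0.18 to 0.23 for *Igf1*, −0.073 to 0.056 for *Igf2r*, −0.13 to 0.042 for *Irs1* and −0.15 to 0.44 for *Pappa*, and from P21 to P35 in WT −0.097 to 0.045 for *Igfbp4*.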
